A study of Mus musculus with 12 samples.

Results

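The comparison set 12 h against 2 h of B cell receptor stimulation in follicular B cells labelled ZFXcko, the Zfx-deleted genotype, on 4 of the series' 12 arrays. Its members were chosen by array title, 2 of 12 h and 2 of 2 h, and all genes tested on them are described. The spleen cells were sorted by flow cytometry as CD23hi CD21int cells that were B220+ and AA4.1-, and the mice were males of the strain 129SvEv aged 8 weeks. They were kept for the given time in medium with 10 µg/mL of anti-IgM, which binds and crosslinks the surface receptor of B cells. Wild type cells of the same strain, sex, age, gate and dose gave 2 arrays at each time, and both genotypes also had 2 arrays at 0 h. No source used here gives the driver or timing of the deletion, the number of mice behind each RNA, or whether duplicates came from different mice. Per the labels' protocols RNA was hybridized in duplicate. The p-values therefore reflect the spread of duplicate arrays alone, and that spread may be technical.

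Zfx encodes a zinc finger transcription factor of the X chromosome with known roles in stem cell self-renewal and lymphocyte survival. Crosslinking of the B cell receptor activates the kinases Lyn and Syk, opens calcium entry and switches on the MAP kinase and NF-kB pathways. Within the first hours this induces immediate early genes, many of which encode transcription factors and feedback inhibitors with short-lived mRNAs. Later the resting cell grows, building ribosomes, mitochondria and membrane lipids, before it enters the cell cycle. The step from 2 h to 12 h therefore runs from the early into the late response.

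Signals are the linear intensities deposited by the authors, scaled to a trimmed mean of 250 on each array, with array medians of 29.9 and 30.5 at 2 h and 30.3 and 30 at 12 h. Differences are of log2(signal + 16), 12 h minus 2 h, ± SE of the limma fit with n = 2 arrays a group, and this scale understates the change of dim genes. A gene is called at a limma adjusted p under 0.05, and rose and fell are used of called genes only. Across genes, which are not independent replicates, the duplicates correlated at 0.988 and 0.989, and arrays of different times at 0.937 to 0.939. Control probe sets divided the series into 6 arrays with a 3′ 18S ribosomal RNA signal between 1022 and 1299 and 6 between 6636 and 10892. All 4 arrays compared here lay on the low side, at 1022 and 1085 at 2 h and 1100.0 and 1033 at 12 h. The 5′ signal of actin was nevertheless 10.6% and 10.8% of its 3′ signal at 2 h against 19.1% and 19% at 12 h, and that of Gapdh 8.75% and 8.02% against 12.6% and 13%. The 2 groups thus differed in these ratios, and their part in the results below was not tested. The cko 0 h arrays lay on the high side of the division, with 18S signals of 7124 and 7553. Every cko 0 h signal set beside 2 h or 12 h below therefore crosses it, and time and division cannot be told apart there.

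Zfx itself was read by 4 probe sets that did not move together. Its brightest probe set gave 974 and 1034 at 2 h and 1237 and 1341 at 12 h, a difference of 0.35 ± 0.09 (limma adjusted p = 0.0044), with both 12 h arrays above both 2 h arrays. A dimmer one gave 126.7 and 118.1 at 2 h and 63.5 and 47.0 at 12 h, which fell by 0.97. The third gave 69.9 and 72.3 at 2 h and 14.5 and 45.8 at 12 h and was not called (limma adjusted p = 0.071), and the fourth did not pass the filter on dim probe sets. No source used here places the probe sets relative to the deleted part, so their signals cannot check the genotype, and the brightest set was not lower in cko than in wild type cells at 2 h (809.6 and 789.6 in wild type). The arrays are therefore called by their labels throughout.

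Change from 2 h to 12 h was widespread: 25 of 30 immediate early genes fell, while 47 of 55 respiratory chain subunits and 19 of 21 sterol pathway genes rose. Of 12190 genes tested, 5968 (49.0%) were called, 3683 of them higher (30.2% of all tested) and 2285 lower (18.7%) at 12 h, with a median difference over all genes of 0.10. A change of at least 2-fold was called in 2048 genes (16.8%), 1366 higher (11.2%) and 682 lower (5.59%). In 8967 genes (73.6%) the 2 h and the 12 h arrays did not overlap, so a lack of overlap alone sets few genes apart here. On this scale falls reached down to -5.45 and rises up to 3.72, but the scale understates the change of dim genes. Of the 20 largest rises 12 had a mean signal under 100 at 2 h, against 0 of the 20 largest falls. The reach of falls and rises therefore cannot be ranked. In bulk RNA, fewer cells of a type and less RNA per cell cannot be told apart.

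**Figure D1:**
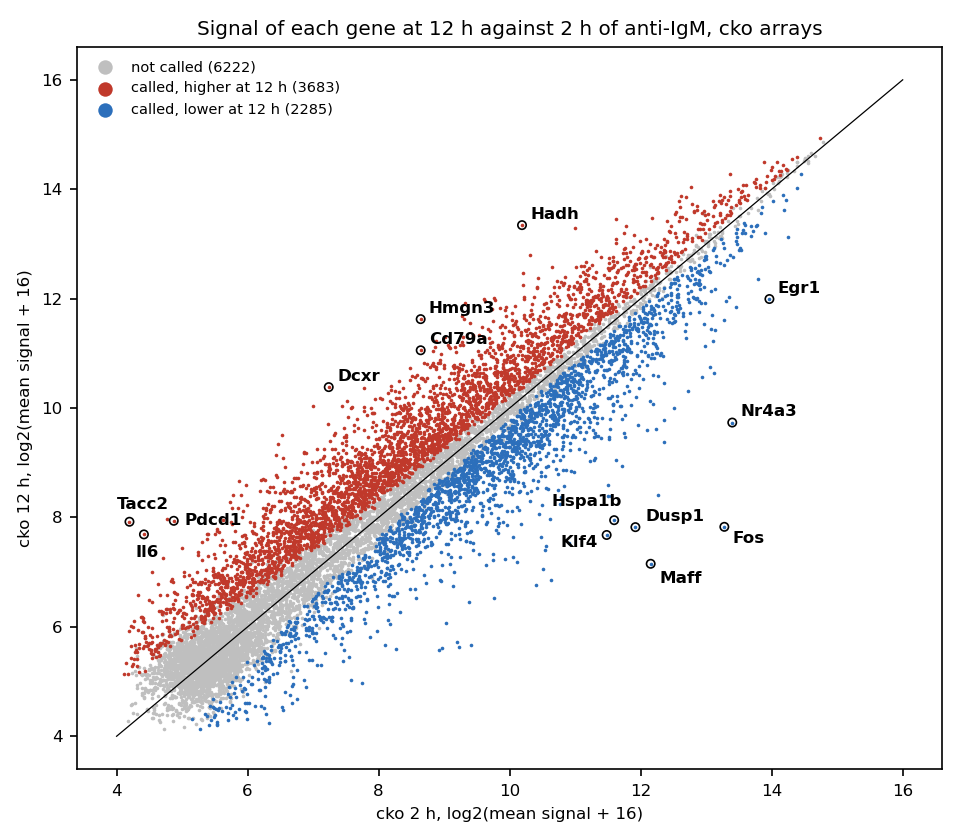
Mean signal of each of the 12190 genes at 12 h (vertical axis) against 2 h (horizontal axis) in cko cells, both as log2(signal + 16), 1 point a gene, red where called higher (3683), blue where called lower (2285) and grey where not called. Fos and Maff lie farthest below the diagonal of equal signal, and Tacc2, Il6, Hadh and Dcxr are among the farthest above it.

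The 20 largest falls were led by immediate early genes. Fos, the partner of Jun in the AP-1 transcription factor, had signals of 9683 and 10141 at 2 h and 205 and 217 at 12 h, a difference of -5.45 ± 0.07 (limma adjusted p = 2.3e-15). Its 12 h arrays lay below its 2 h arrays by more than for any other named gene, and its 0 h arrays, at 15868 and 15575, were higher than either. Maff, a small Maf factor that lacks an activation domain, gave 4619 and 4457 at 2 h and 116 and 136 at 12 h (-5.00 ± 0.14). Unlike Fos it was low before stimulation, at 295 and 361. Dusp1, a phosphatase that switches off MAP kinases, went from 3786 and 3929.5 to 236 and 185 (-4.11 ± 0.09). The orphan nuclear receptors of the NR4A family behaved alike, Nr4a2 with 4936 and 4825 at 2 h and 373 and 274 at 12 h (-3.87 ± 0.19) and Nr4a3 with 10566 and 11001 at 2 h and 819.5 and 853 at 12 h (-3.66 ± 0.10). A lack of overlap between the 2 h and the 12 h arrays was a condition for all 20 falls, so it adds no support for these genes.

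Other genes in this group encode signalling and secreted proteins. Cd274, which encodes the inhibitory ligand PD-L1, fell from 1972 and 1828 to 178 and 162 (-3.36 ± 0.10). Map3k8, a kinase upstream of ERK, fell from 2794 and 2956 to 339 and 300.0 (-3.11 ± 0.11), and Gfi1, a zinc finger repressor, from 3027 and 2912 to 332 and 306 (-3.16 ± 0.10). The chemokine genes Ccl3 (1489.8 and 1450.4 at 2 h and 154 and 152 at 12 h; -3.14 ± 0.21) and Cxcl2 (499.9 and 438 at 2 h and 29.4 and 33.9 at 12 h; -3.34 ± 0.16) were also among the 20. Klf4, a factor linked to B cell quiescence, gave 2898 and 2787 at 2 h and 202 and 176 at 12 h (-3.80 ± 0.12), after 3547 and 3299 at 0 h. The remaining members were Fosb, Gem, Plaur, Osgin2, Cystm1, Mybpc2, Sec24a and the heat shock genes Hspa1a and Hspa1b, with differences between -3.69 for Cystm1 and -3.13 for Plaur apart from Hspa1a at -3.82. The 20 genes had mean signals of 469.0 to 10784 at 2 h and of 31.7 to 836.0 at 12 h, so most were bright at 2 h. With the mean of all its probe sets in place of the brightest, Nr4a2 differed by -2.56, and 2 of its 6 probe sets were near background.

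The promoters of Fos and Maff are shown because these genes had the 2 largest falls, and those of Tacc2 and Il6 because these had the 2 largest rises. The windows are those of RefSeq on GRCm38.p6, each 250 bases before to 50 after a transcript start on the plus strand: chr12:85473640-85473939 for Fos, chr15:79347270-79347569 for Maff (1 of 3 start windows), chr7:130577188-130577487 for Tacc2 (1 of 2) and chr5:30012864-30013163 for Il6. Capitals mark matches to the motifs searched on both strands, and no 2 matches overlap.
Fos: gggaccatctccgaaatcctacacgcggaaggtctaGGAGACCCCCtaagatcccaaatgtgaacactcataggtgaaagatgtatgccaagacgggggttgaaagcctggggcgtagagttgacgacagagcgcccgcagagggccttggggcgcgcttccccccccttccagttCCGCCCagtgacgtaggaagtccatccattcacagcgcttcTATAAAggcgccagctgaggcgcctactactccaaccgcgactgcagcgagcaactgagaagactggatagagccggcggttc
Maff: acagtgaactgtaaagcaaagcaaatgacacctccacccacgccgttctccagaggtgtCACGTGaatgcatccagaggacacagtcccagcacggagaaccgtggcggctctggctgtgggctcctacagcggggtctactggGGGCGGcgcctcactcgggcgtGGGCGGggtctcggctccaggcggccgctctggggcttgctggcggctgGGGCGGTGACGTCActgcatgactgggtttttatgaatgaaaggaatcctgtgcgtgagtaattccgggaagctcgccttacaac
Tacc2: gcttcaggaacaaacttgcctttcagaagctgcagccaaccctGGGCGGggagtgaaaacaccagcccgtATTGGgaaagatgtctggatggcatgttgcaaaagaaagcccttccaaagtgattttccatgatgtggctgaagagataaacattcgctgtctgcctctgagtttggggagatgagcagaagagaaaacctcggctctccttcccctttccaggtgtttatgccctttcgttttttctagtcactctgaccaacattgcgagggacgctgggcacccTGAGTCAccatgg
Il6: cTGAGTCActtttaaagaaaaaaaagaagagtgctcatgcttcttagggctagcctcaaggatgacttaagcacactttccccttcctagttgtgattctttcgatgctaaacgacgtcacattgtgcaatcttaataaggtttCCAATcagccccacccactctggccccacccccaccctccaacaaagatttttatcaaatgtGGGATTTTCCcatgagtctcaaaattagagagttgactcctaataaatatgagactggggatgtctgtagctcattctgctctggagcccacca

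In the Fos window the capitals are a kB element at -214, a GC box at -74 and a TATA box at -33 from the start. The Maff window holds an E-box at -191, 3 GC boxes and a cAMP response element at -29, which directly follows the last GC box. Tacc2 has a GC box at -207, a CCAAT box at -180 and an AP-1 element at 37 bases past the start, and Il6 has an AP-1 element at -249, a CCAAT box at -106 and a kB element at -44. Of the 40 genes with the largest falls and rises 34 had a window. The E-box CACGTG stood in 15.5% of the 697 windows of genes that fell at least 2-fold, 8.44% of the 1458 windows of genes that rose at least 2-fold and 9.73% of the 12570 windows of all genes tested. The kB element was in 14.2%, 10% and 10.5% of these windows, and the EGR element GCGGGGGCG in 7.17%, 4.25% and 5.11%. Smaller spreads were seen for the cAMP response element TGACGTCA, at 3.3%, 2.26% and 2.91%, and for the AP-1 element TGAGTCA, at 3.73%, 3.64% and 3.76%. The CCAAT box CCAAT was in 33.4%, 40.6% and 37.3%, the GC box GGGCGG in 64.6%, 60.8% and 59.9%, and the TATA box TATAAA in 9.04%, 7.41% and 7.64%. The CArG box was in 1%, 1.17% and 1.33% and the heat shock element in 0.574%, 0.343% and 0.493%. Over all 32851 windows the E-box was in 7.15% and the kB element in 8.46%. These shares are descriptions, and a match is not a bound site.

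**Figure D2:**
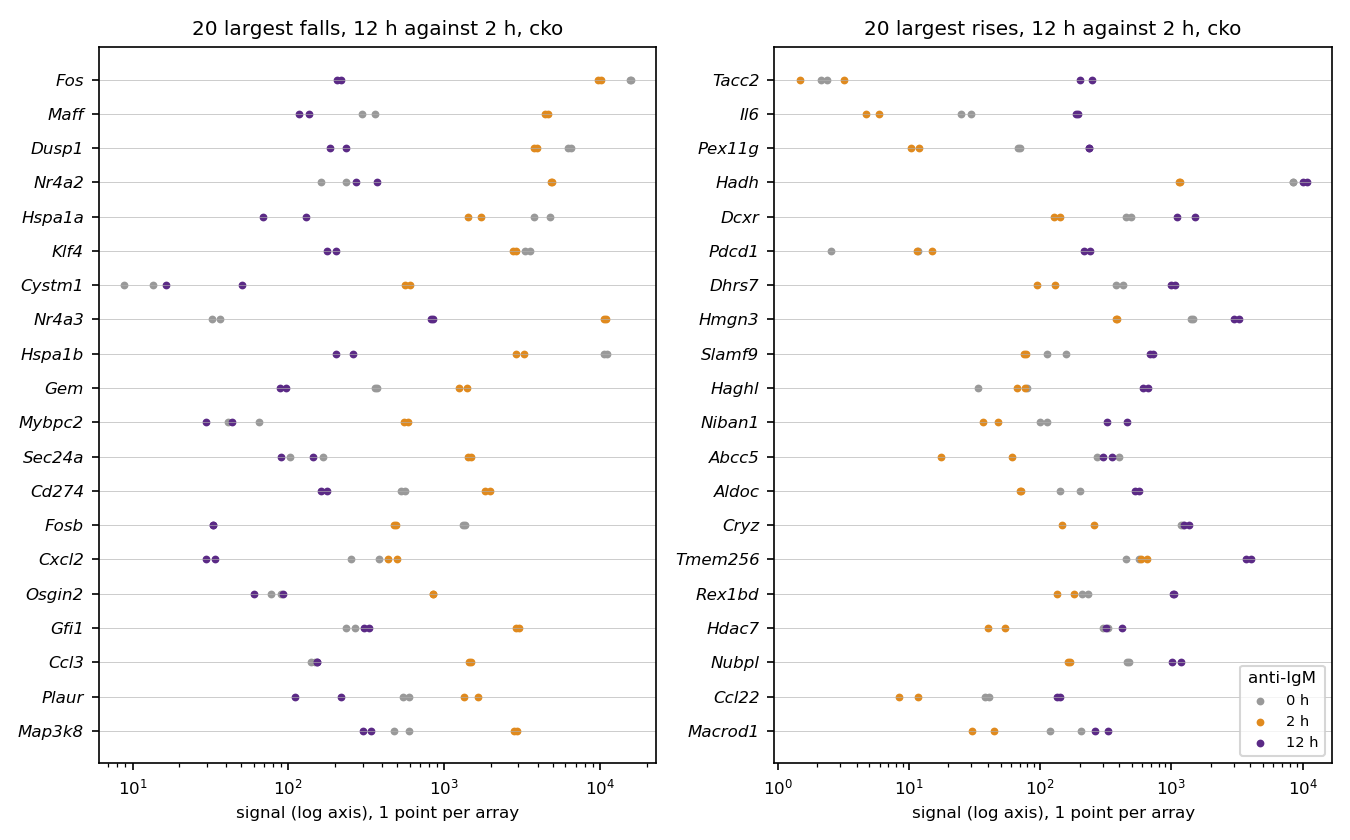
Signal on a log axis, 1 point per array, of the 20 largest falls (left) and the 20 largest rises (right) from 2 h to 12 h in cko cells, with the 0 h arrays in grey, the 2 h arrays in orange and the 12 h arrays in purple. Fos and Dusp1 were high at 0 h and 2 h and low at 12 h, whereas Nr4a3 and Map3k8 were highest at 2 h, and Hadh was low at 2 h alone. The 0 h arrays lie on the other side of the control-probe division from those of 2 h and 12 h.

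The 20 largest rises were led by Tacc2, Il6, Pex11g and Hadh, with differences of 3.72 to 3.15. Hadh, an enzyme of mitochondrial fatty acid oxidation, had signals of 1158 and 1144 at 2 h and 10025 and 10736 at 12 h, a difference of 3.15 ± 0.05 (limma adjusted p = 8.2e-14). At 0 h, across the control-probe division, it stood at 8514 and 8518, close to its 12 h level, so the 2 h arrays were the low ones. Dcxr, a carbonyl reductase of the glucuronate pathway, gave 141 and 129 at 2 h and 1111 and 1526 at 12 h (3.13 ± 0.13). Hmgn3, a nucleosome-binding protein, gave 388 and 379 at 2 h and 3292 and 2993 at 12 h (2.98 ± 0.07), and the membrane protein gene Tmem256 gave 649.8 and 591 at 2 h and 4059 and 3708 at 12 h (2.61 ± 0.10). The signals of these 4 genes were bright, and a lack of overlap between the times was a condition for the 20 rises too.

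For others the 2 h signal was close to background. Tacc2, a centrosome-associated protein, had 1.47 and 3.20 at 2 h and 203 and 250 at 12 h (3.72 ± 0.32), and Il6, the gene of interleukin 6, had 5.98 and 4.76 at 2 h and 193 and 188 at 12 h (3.27 ± 0.33). Pdcd1, which encodes the inhibitory receptor PD-1, had 15.1 and 11.6 at 2 h and 218 and 241 at 12 h (3.07 ± 0.35), and the chemokine gene Ccl22 had 8.38 and 11.7 at 2 h and 135 and 141 at 12 h (2.57 ± 0.26). In all 4 genes the size of the difference depends on the pseudocount. With 64 in place of 16 it was 2.13 for Tacc2, 1.88 for Il6, 1.92 for Pdcd1, 1.45 for Ccl22 and 1.99 for Pex11g. Of the 20 genes, 12 had a mean signal under 100 at 2 h and no detection calls were used. Over all 12 arrays the mean log2(signal + 16) was 5.21 for Tacc2 and 5.24 for Il6, just above the filter cutoff of 5.14. Il6 passed that filter only through its 12 h cko arrays. Tacc2 passed it only through the 12 h arrays of both genotypes, which were at 94.1 and 61.3 in wild type cells. The place of both among the rises thus rests on the arrays where they were high.

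The remaining rises were Pex11g, Dhrs7, Slamf9, Haghl, Niban1, Abcc5, Aldoc, Cryz, Rex1bd, Hdac7, Nubpl and Macrod1, between 3.21 for Pex11g and 2.55 for Macrod1. Among them Nubpl, an assembly factor of respiratory complex I, gave 164 and 169.5 at 2 h and 1188 and 1012 at 12 h, and Slamf9, a receptor of the SLAM family, 77.8 and 74.9 at 2 h and 690.5 and 726 at 12 h. Aldoc, an aldolase of glycolysis, gave 70.0 and 71.2 at 2 h and 570.5 and 526 at 12 h. When the probe sets of a gene were averaged, 6 of the 20 rises shrank by more than 1.5 times, to 0.80 for Abcc5, 1.18 for Hdac7, 1.68 for Pex11g, 1.73 for Cryz, 1.79 for Aldoc and 1.97 for Hadh.

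Of the immediate early genes, which need no new protein to be induced, 25 of 30 tested fell and 2 rose, with a median of -1.67, beside 2285 falls, 3683 rises and a median of 0.10 over all 12190 genes. At least 2-fold falls were called in 21 of the 30. Egr1, a zinc finger factor induced through ERK, was the brightest, with 15383 and 16586 at 2 h and 4019.7 and 4101 at 12 h (-1.97 ± 0.06), and thus was still strongly expressed at 12 h. Nr4a1, which encodes Nur77 and is widely used as a reporter of receptor signalling, gave 8846 and 8954 at 2 h and 1602 and 1567 at 12 h (-2.48 ± 0.06). Myc, the growth-promoting transcription factor, gave 5863 and 5784 at 2 h and 952 and 1062 at 12 h (-2.52 ± 0.12). The 12 h arrays of all 3 genes were below the 2 h arrays. Against the others, Jund, an AP-1 member abundant in resting cells, rose from 1869 and 2066 to 2871 and 3191 (0.62 ± 0.10). Nab2, a corepressor that binds EGR proteins, rose from 366 and 300.5 to 498 and 485 (0.55 ± 0.15), a call that was lost at 0.41 without the second 2 h array.

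Feedback inhibitors of the MAP kinase pathway moved the same way. Of 14 phosphatase and Sprouty genes tested, 8 fell and 0 rose (median -0.74), with 57.1% called against 49.0% of all genes. Besides Dusp1, Dusp2, a nuclear phosphatase of ERK, gave 9492 and 10350.4 at 2 h and 3313 and 2909 at 12 h (-1.67 ± 0.07). Dusp4 gave 2274 and 2290.1 at 2 h and 1332 and 1224 at 12 h (-0.83 ± 0.12) and Dusp16, which prefers the stress kinases, 599 and 590.2 at 2 h and 287 and 272 at 12 h (-1.05 ± 0.11, or -0.50 when its probe sets were averaged). In each the arrays of the 2 times did not overlap, as in 73.6% of all genes.

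In the NF-kB list, 14 of 19 genes fell and 2 rose (median -0.87). Rel, the subunit c-Rel that B cells need to divide, went from 2686 and 2685 to 708 and 670.5 (-1.94 ± 0.08). The nuclear inhibitors Nfkbiz, with 4558 and 4483 at 2 h and 1126 and 1086 at 12 h (-2.02 ± 0.07), and Nfkbid, with 8208 and 8963 at 2 h and 2788 and 2774 at 12 h (-1.62 ± 0.07), fell as well. Irf4, a target of c-Rel and a regulator of plasma cell fate, gave 10391 and 10423 at 2 h and 4154 and 4158 at 12 h (-1.32 ± 0.05). Against the others, Bcl3, an atypical inhibitor that can act as a coactivator, rose from 276 and 280.2 to 592 and 625 (1.09 ± 0.09). The second exception, Cflar, an inhibitor of caspase 8, was called at 0.33 ± 0.09 on its brightest probe set but differed by -0.45 as the mean of its 5 probe sets, and its call was lost at 0.29 without the first 12 h array.

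Genes of secreted factors split, with 8 falls and 6 rises among 21 (median -0.37). Ccl4, another chemokine gene, fell from 6768 and 6727 to 1326 and 1182 (-2.41 ± 0.10). The 6 rises were Il6 and Ccl22, given above, and Ccl5 (223 and 195 at 2 h and 467 and 594 at 12 h; 1.27 ± 0.15), Ebi3 (235 and 258 at 2 h and 558 and 575 at 12 h; 1.15 ± 0.12), Il12a (59.4 and 70.3 at 2 h and 147 and 138 at 12 h; 0.97 ± 0.24) and Il16 (453 and 505 at 2 h and 896 and 849 at 12 h; 0.85 ± 0.08, or 0.54 as the mean of its probe sets). Ebi3 and Il12a encode the 2 chains of interleukin 35, a cytokine that regulatory B cells can make. Myeloid cells also express several of these genes. The summed signal of 24 myeloid markers was 5024 and 5471 at 2 h and 6340.5 and 6133 at 12 h. The macrophage genes Adgre1 (60.9 and 70.5 at 2 h and 186.6 and 163.3 at 12 h; 1.22 ± 0.19) and Csf1r (81.7 and 81.5 at 2 h and 129.3 and 134.4 at 12 h; 0.60 ± 0.11) rose. From the same list Cd14 fell (208.3 and 212.6 at 2 h and 81.2 and 112.5 at 12 h; -1.02 ± 0.28, or -0.82 without the first 12 h array). Cd68 was at 147.8 and 141.9 at 2 h and 97.5 and 114.4 at 12 h, and C1qa was between 1.76 and 3.60. These markers thus went in both directions, and the part of such cells in the cytokine result was not tested. In the SOCS family of cytokine signalling inhibitors, Socs3 fell from 496 and 518 to 73.2 and 29.5 (-3.04 ± 0.25). The counts there were 2 falls and 2 rises among 7, with 57.1% called against 49.0% of all genes.

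Stress pathways differed from each other. Of 23 heat shock chaperones and cochaperones, 11 fell and 3 rose (median -0.16), with 60.9% called against 49.0% of all genes. Hspa1a and Hspa1b, near-identical genes of inducible Hsp70 whose probe sets may not separate them, gave 1714 and 1416 at 2 h and 129 and 69.2 at 12 h (-3.82 ± 0.21) and 3243 and 2913 at 2 h and 259 and 203 at 12 h (-3.65 ± 0.10). Both were higher still at 0 h, at 3777 and 4767 and 10582 and 11042. Dnajb9, a cochaperone of the endoplasmic reticulum, fell from 5329.6 and 5138 to 835 and 889 (-2.58 ± 0.07), and Dnaja2 fell by less (-0.93 ± 0.06). Among the rises Chordc1, a cochaperone of Hsp90, gave 4966 and 4775 at 2 h and 5950.4 and 6008 at 12 h (0.30 ± 0.05).

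The unfolded protein response, which expands the folding capacity of the endoplasmic reticulum, showed small and mixed differences, 6 rises and 3 falls among 22 (median 0.04), or 40.9% called against 49.0% of all genes. Hspa5, the chaperone BiP, gave 14639 and 15714 at 2 h and 9685 and 9161 at 12 h (-0.69 ± 0.05) and Herpud1, a degradation factor, 1096 and 1141 at 2 h and 551 and 652 at 12 h (-0.88 ± 0.13), both lower at 12 h. Sdf2l1 rose from 394 and 363 to 736 and 721 (0.92 ± 0.11). Xbp1, the factor spliced by IRE1, was called at 0.42 ± 0.05 on its brightest probe set and differed by -0.01 as the mean of its 4.

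The integrated stress response slows translation and raises ATF4 when amino acids run short or proteins misfold. Of 25 of its genes tested, 9 fell and 6 rose (median -0.21), with 60% called against 49.0% of all genes. Atf4 gave 7095 and 7219 at 2 h and 4915 and 4928 at 12 h (-0.54 ± 0.06) and its target Ddit3, which encodes CHOP, 2417 and 2575 at 2 h and 1232 and 1279.7 at 12 h (-0.98 ± 0.09). Ppp1r15a, the phosphatase subunit GADD34 that ends the response, fell from 3141 and 3129.8 to 511 and 512 (-2.58 ± 0.14). The rises were Asns, asparagine synthetase (1345 and 1297 at 2 h and 1855 and 1729.5 at 12 h; 0.43 ± 0.10), and the serine and glycine pathway genes Phgdh (1.18 ± 0.07), Psph (1.65 ± 0.24) and Shmt2 (0.33 ± 0.07). Ddit4, an inhibitor of mTOR, (1.46 ± 0.08) and Eif4ebp1, a repressor of translation that mTOR inactivates, (1.18 ± 0.07) also rose. As the mean of their probe sets Shmt2 was not called (0.28) and Eif4ebp1 differed by 0.68.

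Amino acid transporters were mostly lower at 12 h, with 8 falls and 1 rise among 13 (median -0.85). Slc7a1, which imports arginine and lysine, gave 10122 and 10134 at 2 h and 4124 and 3844 at 12 h (-1.34 ± 0.06). Slc3a2, the heavy chain CD98 shared by several transporters, gave 7183 and 7513 at 2 h and 4021 and 4103 at 12 h (-0.85 ± 0.06), and the glutamine transporters Slc38a1 (-1.08 ± 0.07) and Slc38a2 (-0.97 ± 0.06, or -0.64 as the mean of its probe sets) fell too. The glycine transporter Slc6a9 rose from 69.2 and 80.7 to 214 and 179.6 (1.22 ± 0.24, or 0.73 as the mean). The enzymes that charge transfer RNA split, with 8 rises and 7 falls among 19 (median 0.14). Vars rose from 374 and 349 to 650.1 and 588 (0.75 ± 0.09), whereas Cars, for cysteine, fell from 340.5 and 358 to 129 and 133 (-1.31 ± 0.22) and Tars, for threonine, from 5578 and 5876 to 3098 and 3273 (-0.84 ± 0.07).

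Genes for making ribosomes were mostly lower at 12 h, and genes for their proteins were not. Of 33 ribosome biogenesis factors, 22 fell and 1 rose (median -0.46). Nolc1, a nucleolar chaperone of small nucleolar RNPs, gave 2561 and 2555 at 2 h and 868 and 913 at 12 h (-1.51 ± 0.09), and Gnl3, the nucleolar GTPase nucleostemin, 7598 and 7849 at 2 h and 3919.8 and 3842 at 12 h (-0.99 ± 0.06). Noc2l went from 1382 and 1533 to 592 and 677 (-1.18 ± 0.08) and Utp4, of the small subunit processome, from 3414 and 3337 to 1569.7 and 1524 (-1.12 ± 0.11). The arrays of the 2 times were apart in all 4, as in 73.6% of all genes. The exception, Polr1a, the large subunit of RNA polymerase I, was called at 0.54 ± 0.12 on its brightest probe set and differed by -0.36 as the mean of its 5.

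Of the cytosolic ribosomal protein genes, 15 of 31 rose and 2 fell (median 0.12), which is close to the median of all genes, with 54.8% called against 49.0%, and under quantile normalization 8 rose and 3 fell. Rps19 gave 13041 and 14046 at 2 h and 16879 and 18842 at 12 h (0.40 ± 0.06) and Rpl12 3447 and 3277 at 2 h and 2149 and 2018 at 12 h (-0.69 ± 0.08). Translation initiation factors gave 11 falls and 5 rises among 27 (median -0.07), the rises including the eIF3 subunits Eif3k (1.04 ± 0.07), Eif3c (0.71 ± 0.06, or 0.40 as the mean of its probe sets) and Eif3i (0.57 ± 0.05) and the helicase cofactor Eif4b (0.98 ± 0.08). Splicing and export factors were evenly split, 9 against 10 of 28. Among them Srsf2 fell from 4333 and 5010.3 to 1743 and 1326 (-1.61 ± 0.10, or -1.07 as the mean of its probe sets) and Ddx39b, an export helicase, rose from 2322 and 2406 to 4545 and 4638 (0.95 ± 0.06, or 0.43).

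Mitochondrial genes were mostly higher at 12 h. Of 55 subunits of the respiratory chain and ATP synthase tested, 47 rose and 2 fell (median 0.71), and 18 rose at least 2-fold. Ndufs8, an iron-sulfur subunit of complex I, gave 4481 and 4749 at 2 h and 11437 and 11393 at 12 h (1.30 ± 0.05). Ndufb3 gave 2340.2 and 2108 at 2 h and 6305 and 6074 at 12 h (1.47 ± 0.07), Ndufv2 2397 and 2244 at 2 h and 5352 and 5696 at 12 h (1.25 ± 0.05) and Ndufc1 2247 and 2321 at 2 h and 5247 and 5249.5 at 12 h (1.19 ± 0.05). All are parts of complex I and none of their arrays overlapped between the times, as in 73.6% of all genes. At 0 h, across the control-probe division, Ndufs8 (13823 and 14333) and Ndufv2 (5842 and 6072) were above their 12 h signals. Ndufb3 (3066 and 3045) and Ndufc1 (4637 and 4611) were below theirs. The falls were Cox7c, of complex IV (294 and 235 at 2 h and 121 and 116 at 12 h; -1.05 ± 0.16), and Cycs, cytochrome c (7119.5 and 7019 at 2 h and 4874 and 6103 at 12 h; -0.37 ± 0.09, or -0.21 without the first 12 h array).

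Ribosomal proteins of the mitochondrion followed, with 27 rises and 1 fall among 37 (median 0.53). Mrpl4 gave 820.5 and 840.2 at 2 h and 2339 and 2377 at 12 h (1.49 ± 0.09) and Mrps28 893 and 857 at 2 h and 1882 and 1875 at 12 h (1.09 ± 0.08). Mrpl11 (1.38 ± 0.08, or 0.75 as the mean of its probe sets) and Mrps14 (0.99 ± 0.05, or 0.29) also rose. Of the proteasome, which degrades ubiquitin-tagged proteins, 26 of 33 subunits rose and 2 fell (median 0.51). Psmb3 gave 5769 and 6688 at 2 h and 14318 and 15647 at 12 h (1.27 ± 0.07), and Psme1, part of the interferon-inducible activator, 2614 and 2694 at 2 h and 4954 and 4883 at 12 h (0.89 ± 0.06). The 2 falls were small, Psmd7 at -0.33 ± 0.10 and Psmd11 at -0.13 ± 0.05, and both calls were lost without the first 2 h array (-0.31 and -0.15) or without the first 12 h array (-0.20 and -0.11).

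The share of members that rose was highest in the sterol pathway among the 43 lists examined. SREBP factors switch on its genes when membrane cholesterol is low. Of 21 tested, 19 rose, 13 of them at least 2-fold, and 1 fell (median 1.15). Fdft1, squalene synthase, gave 446 and 462 at 2 h and 1666 and 1749 at 12 h (1.87 ± 0.08), and Pmvk, phosphomevalonate kinase, 346 and 352 at 2 h and 817 and 908 at 12 h (1.27 ± 0.10). Hmgcs1, HMG-CoA synthase, gave 6065 and 6181 at 2 h and 13583 and 14768 at 12 h (1.21 ± 0.05, or 0.47 as the mean of its 5 probe sets), and Lss, lanosterol synthase, 134 and 136 at 2 h and 462 and 476 at 12 h (1.68 ± 0.12, or 0.83). The arrays of the 2 times were apart in each, as in 73.6% of all genes. Insig1, which retains SREBP in the endoplasmic reticulum, was the fall, from 895 and 816 to 537 and 585 (-0.59 ± 0.11). Genes of fatty acid synthesis and modification split, 5 rises against 5 falls of 14. Scd1, the stearoyl-CoA desaturase, fell from 4669 and 4994 to 1904 and 2154 (-1.25 ± 0.07), while Elovl1 rose (0.62 ± 0.06).

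In glycolysis and the pentose phosphate pathway, 13 of 22 genes rose and 6 fell (median 0.64). Aldoa, aldolase A, gave 3775 and 3864 at 2 h and 8888 and 9412 at 12 h (1.26 ± 0.07), Pgls, of the oxidative pentose phosphate branch, 576 and 739 at 2 h and 2999.9 and 2963 at 12 h (2.17 ± 0.09), and Tkt, transketolase, 5743 and 6128 at 2 h and 11937 and 12523 at 12 h (1.04 ± 0.05, or 0.53 as the mean of its probe sets). The falls included the carriers at the membrane, the lactate exporter Slc16a1 with 2647 and 2347 at 2 h and 565 and 465 at 12 h (-2.25 ± 0.13) and the glucose transporters Slc2a1 (-0.94 ± 0.10) and Slc2a3 (-0.42 ± 0.08). The other falls were hexokinase 2, Hk2 (-0.73 ± 0.11), lactate dehydrogenase A, Ldha (7344 and 7719 at 2 h and 4886 and 4908 at 12 h; -0.62 ± 0.06), and Pgam1 (-0.41 ± 0.07). Purine and pyrimidine synthesis gave 12 rises and 7 falls among 28 (median 0.11). Atic, of the last purine steps, rose from 753 and 876 to 2750.2 and 2620.1 (1.70 ± 0.09, or 0.82 as the mean of its probe sets), whereas Ppat, the first committed purine enzyme, fell from 2128 and 2324 to 836 and 838 (-1.39 ± 0.12) and Ctps, CTP synthase, from 5098 and 5274 to 2478 and 2534 (-1.04 ± 0.06).

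Genes of the oxidative stress response, many of them targets of the factor NRF2, rose in 13 of 22 cases and fell in 4 (median 0.84). Txn1, thioredoxin, gave 6853 and 7037 at 2 h and 16349.8 and 17503 at 12 h (1.28 ± 0.06), and Gclm, the modifier subunit of glutathione synthesis, 174 and 182 at 2 h and 1160.2 and 874 at 12 h (2.40 ± 0.15, or 1.41 as the mean of its probe sets). Prdx2, a peroxiredoxin, gave 421 and 461 at 2 h and 1690.0 and 1913 at 12 h (1.99 ± 0.08, or 1.03). The falls were Nfe2l2, which encodes NRF2 itself (2110.2 and 2121 at 2 h and 582 and 602 at 12 h; -1.81 ± 0.11, or -0.80), the catalytic glutathione subunit Gclc (3468 and 3588 at 2 h and 1854 and 1817 at 12 h; -0.94 ± 0.07), Fth1 (-0.31 ± 0.05) and Txnip (-0.32 ± 0.07). The 2 subunits of 1 enzyme, Gclm and Gclc, thus differed in opposite directions.

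**Figure D3:**
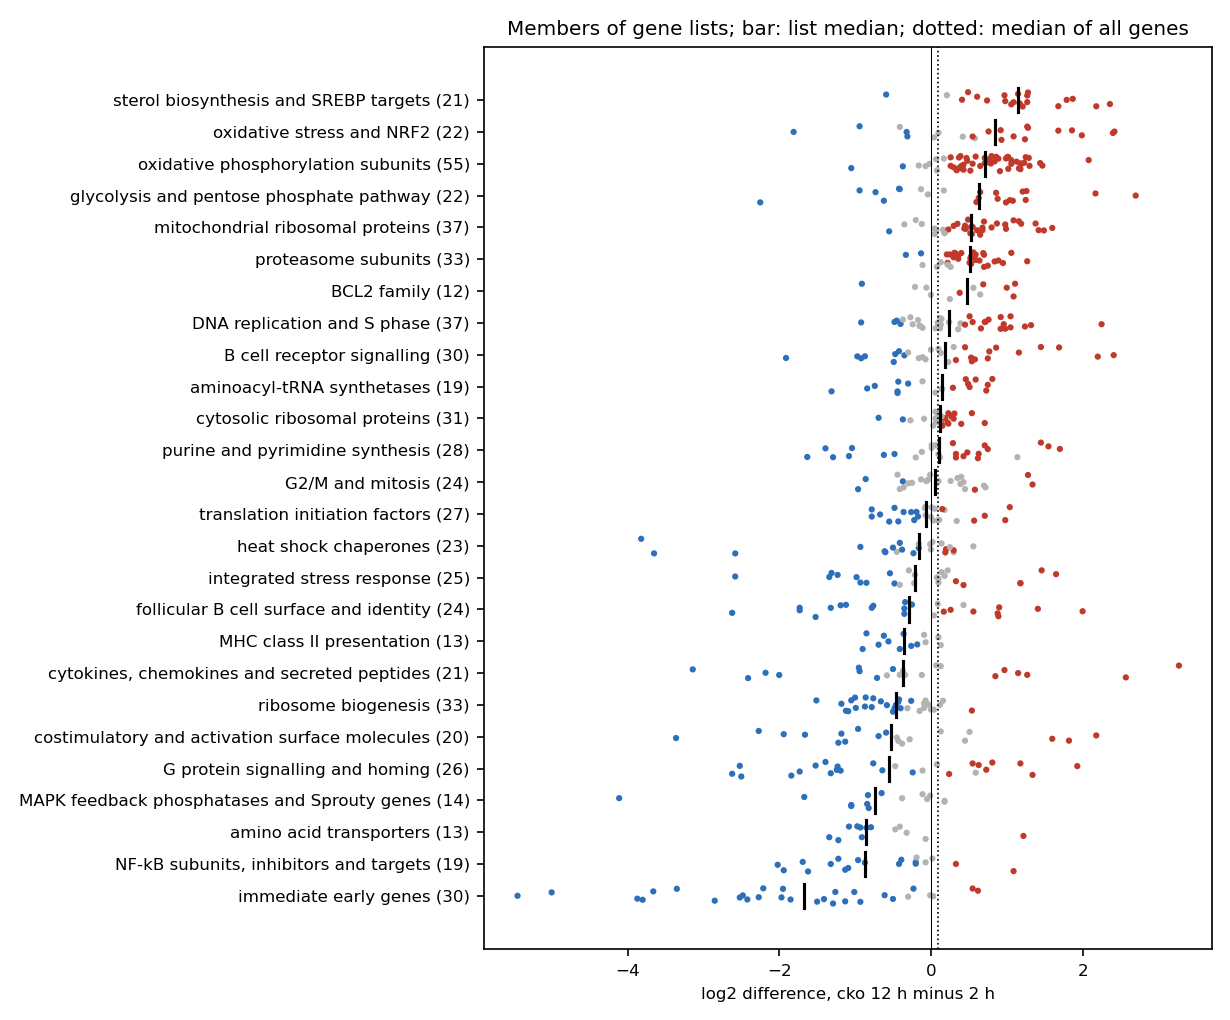
Log2 differences from 2 h to 12 h in cko cells (horizontal axis) of the members of 26 gene lists, 1 point a gene, red where called higher, blue where called lower and grey where not called, with the number tested in parentheses. The black bar is the median of a list and the dotted line that of all 12190 genes, 0.10. Medians run from -1.67 for immediate early genes to 1.15 for sterol biosynthesis.

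Cell cycle lists had medians of 0.05 to 0.24, near that of all genes. Of 37 DNA replication genes, 16 rose and 4 fell (median 0.24), 54.1% called against 49.0% of all genes. Rpa1, of the single-strand binding complex, gave 3727 and 3808 at 2 h and 7975 and 7701 at 12 h (1.05 ± 0.05), and Gins2, of the replicative helicase, 39.9 and 54.8 at 2 h and 254 and 314 at 12 h (2.25 ± 0.19). The helicase subunit Mcm5 gave 2457 and 2230.4 at 2 h and 4173 and 3786 at 12 h (0.76 ± 0.06, or 0.33 as the mean of its probe sets). Cdt1, which loads the helicase, fell from 5854 and 5879 to 3059 and 3109 (-0.92 ± 0.05), and Pcna, the sliding clamp, from 13054 and 13844 to 9452 and 9786 (-0.48 ± 0.06). Of 24 mitotic genes, 18 were not called, 3 rose and 3 fell (median 0.05). Aurkb, Aurora kinase B, remained dim at 30.7 and 16.1 at 2 h and 87.0 and 70.4 at 12 h (1.28 ± 0.29, or 0.71 with a pseudocount of 64), as did Bub1b, of the spindle checkpoint, at 11.4 and 28.7 at 2 h and 74.1 and 71.3 at 12 h (1.34 ± 0.30, or 0.71).

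Among G1 regulators, 9 of 20 rose and 5 fell (median 0.21). Ccnd2, the cyclin D2 that B cell receptor signals require, gave 3470.3 and 3344 at 2 h and 3531 and 3699 at 12 h, a difference of 0.08 ± 0.06 that was not called (limma adjusted p = 0.26), although the arrays of 2 h and 12 h did not overlap. Ccne1, cyclin E1, rose from 92.1 and 64.6 to 367 and 404 (2.10 ± 0.14). Cdkn1a, the inhibitor p21, gave 657 and 781 at 2 h and 2277 and 1901 at 12 h (1.52 ± 0.14). It also belongs to the p53 list, where 6 rose and 6 fell of 21, with 57.1% called against 49.0% of all genes. The falls included the inhibitors Cdkn1b, p27 (206 and 164 at 2 h and 115 and 106 at 12 h; -0.66 ± 0.16), and Cdkn2d (-0.60 ± 0.11) and the kinase Cdk6 (-0.34 ± 0.06). In the p53 list Ei24 rose from 251 and 253 to 829 and 877 (1.69 ± 0.10) and Plk2 fell from 879.7 and 1033 to 124 and 145 (-2.69 ± 0.13).

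The BCL2 family sets the threshold for mitochondrial cell death. Of 12 members tested, 5 rose, 1 fell and 6 were not called (median 0.47), and the share called, 50%, was near the 49.0% of all genes. The anti-apoptotic Bcl2 gave 1226 and 1212 at 2 h and 1952 and 1992 at 12 h (0.69 ± 0.06), while Bcl2l1, which encodes BCL-XL, gave overlapping signals of 551 and 698 at 2 h and 628 and 874 at 12 h (0.25 ± 0.17, limma adjusted p = 0.26). For Bcl2l1 the difference ran from 0.02 to 0.48 when 1 array was left out. Of the pro-apoptotic BH3 genes, Bmf gave 216 and 273 at 2 h and 588 and 502 at 12 h (1.11 ± 0.13) and Bad 158 and 143 at 2 h and 268 and 376 at 12 h, and both rose, whereas Pmaip1, or Noxa, fell (307 and 254 at 2 h and 160.0 and 124 at 12 h; -0.91 ± 0.22). Bcl2l11, which encodes BIM, was bright at both times, with 7826 and 7428 at 2 h and 10337 and 9480.2 at 12 h (0.38 ± 0.11). This call was lost without the second 2 h array (0.34), without the first 12 h array (0.31) or without the intensity trend of the variances. Of the 5 probe sets of Bcl2l11 only this brightest one was called, and the next brightest differed by -0.03.

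Genes of quiescence and FOXO signalling fell in 13 of 25 cases and rose in 9 (median -0.21). Irs2, an adaptor of insulin signalling and FOXO target, gave 1034 and 1155 at 2 h and 106 and 153 at 12 h (-2.95 ± 0.14). Pik3ip1, an inhibitor of PI3 kinase, gave 858 and 878 at 2 h and 208 and 198 at 12 h (-2.01 ± 0.10), and Tob2, an antiproliferative protein, 3795 and 3547 at 2 h and 968 and 1116 at 12 h (-1.80 ± 0.14). On the other side Slfn2, which keeps lymphocytes quiescent, rose from 662 and 748 to 1540.1 and 1758 (1.21 ± 0.09), as did Klf13 (0.80 ± 0.10) and Klf7 (0.85 ± 0.12).

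The receptor and its signalling proteins split by gene. Of 30 tested, 13 rose and 8 fell (median 0.18). Cd79a and Cd79b, the 2 signalling chains of the receptor, both rose, Cd79a from 389 and 378 to 2121 and 2105 (2.41 ± 0.12, limma adjusted p = 1.3e-09) and Cd79b from 6620.4 and 6636 to 14587 and 15034 (1.16 ± 0.05). The coreceptor component Cd81 gave 869 and 858 at 2 h and 3922 and 4120.0 at 12 h (2.20 ± 0.06), and the kinase Syk 586 and 614 at 2 h and 1584 and 1753 at 12 h (1.45 ± 0.07, or 0.86 as the mean of its probe sets). At 0 h, across the control-probe division, Cd79a (2430.5 and 2391) and Cd79b (22848 and 22438) were above their 12 h signals. Cd81 (1895 and 1888) was below its 12 h signals. Falls were found for the Src kinases Fyn (2930.4 and 2955 at 2 h and 734 and 808 at 12 h; -1.91 ± 0.15) and Blk (5395 and 5656 at 2 h and 2974 and 3072 at 12 h; -0.87 ± 0.05), for the NF-kB adaptors Malt1 (-0.97 ± 0.11) and Bcl10 (-0.47 ± 0.05), and for the calcium channel Orai1 (-0.49 ± 0.08).

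Inhibitory receptors and phosphatases were evenly split, 6 against 6 of 18. Fcgr2b, the inhibitory receptor for IgG, rose from 1048 and 1092 to 2968 and 2982 (1.46 ± 0.07), Cd22 from 1458 and 1498 to 2787 and 2764 (0.90 ± 0.05, or 0.38 as the mean of its probe sets) and Siglecg from 237 and 270.1 to 481 and 490.1 (0.90 ± 0.08). Inpp5d, the lipid phosphatase SHIP-1, fell (1117 and 1155 at 2 h and 563 and 592 at 12 h; -0.96 ± 0.09). The B cell transcription factor gene Pax5 gave 86.2 and 108 at 2 h and 412 and 462 at 12 h (2.00 ± 0.13, or 1.24 as the mean), and the B cell factors Ikzf1 (0.88 ± 0.08) and Id3 (1.41 ± 0.08) also rose.

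Surface molecules of activation were mostly lower at 12 h, 10 falls against 3 rises among 20 (median -0.52). Cd69, an early activation marker that retains lymphocytes in tissue, gave 4046 and 3902 at 2 h and 775 and 852 at 12 h (-2.27 ± 0.09), and Cd86, a ligand of CD28 on T cells, 3153 and 3453 at 2 h and 1023 and 1046 at 12 h (-1.66 ± 0.07). Both had 12 h arrays well below their 2 h arrays. The rises were Tnfrsf13b, the receptor TACI for BAFF and APRIL (291 and 312 at 2 h and 1432 and 1419 at 12 h; 2.18 ± 0.09), Tnfrsf18 (274 and 302 at 2 h and 1057 and 1056 at 12 h; 1.82 ± 0.10) and Cd48 (339 and 333 at 2 h and 1088 and 1014 at 12 h; 1.60 ± 0.10). Genes of MHC class II presentation fell in 9 of 13 cases and rose in 0 (median -0.36). H2-Ab1 gave 17672 and 19465 at 2 h and 12605 and 12628 at 12 h (-0.56 ± 0.05, or -1.12 as the mean of its probe sets), and Ifi30, a lysosomal thiol reductase, 11413 and 11714 at 2 h and 7342 and 7709.8 at 12 h (-0.62 ± 0.05).

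In the mixed list of G protein signalling and homing, 14 of 26 fell and 8 rose (median -0.55). Cxcr4, the receptor for CXCL12, gave 4007 and 3731 at 2 h and 1197 and 1121 at 12 h (-1.73 ± 0.07), and Ptger4, a prostaglandin E2 receptor, 4369 and 4405 at 2 h and 755 and 764 at 12 h (-2.50 ± 0.07). The G protein Gna13 gave 4784 and 4826 at 2 h and 2072 and 2004 at 12 h (-1.23 ± 0.06), and Gnai2, which relays chemokine signals, rose from 2024 and 2269 to 5372 and 5512 (1.34 ± 0.07). In the follicular list, where 13 of 24 fell and 8 rose, Cxcr5, which guides B cells into follicles, gave 2028 and 2012 at 2 h and 679 and 710.3 at 12 h (-1.52 ± 0.08). Cr2, the complement receptor CD21 of the sort gate, gave 1456 and 1364 at 2 h and 343 and 495 at 12 h (-1.73 ± 0.15). Fcer2a, the CD23 of the gate, differed by -0.25 ± 0.09, a call lost in 8 of the alternatives (-0.19 without the first 2 h array).

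Several smaller groups showed few or mixed calls. Interferon-stimulated genes gave 11 rises and 3 falls among 28 (median 0.21), a share called of 50%, near the 49.0% of all genes. Bst2, which tethers budding virus, rose from 78.3 and 128 to 553 and 571 (2.31 ± 0.24), and Xaf1 from 40.7 and 49.3 to 238 and 283 (2.18 ± 0.18, or 1.16 as the mean of its probe sets), while Irf1 fell (1537 and 1659 at 2 h and 942 and 881 at 12 h; -0.80 ± 0.08). Toll-like receptors and adaptors gave 4 rises and 3 falls of 18 (38.9% called), and the GIMAP GTPases of lymphocyte survival 2 and 3 of 8 (62.5% called). Of 12 genes of the plasma cell program 4 rose and 2 fell, again 50% called. Mzb1, an endoplasmic reticulum protein of antibody-secreting cells, gave 960.1 and 897 at 2 h and 2505 and 2742 at 12 h (1.48 ± 0.08) and Slamf7 279 and 355 at 2 h and 915 and 1043 at 12 h (1.59 ± 0.14), but Jchain, which joins secreted IgM, gave 4700.5 and 4335 at 2 h and 2379 and 2897 at 12 h (-0.78 ± 0.10).

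The sorted cell type was read from its markers. Summed over 9 B cell markers the signal was 33647 and 33108 at 2 h and 46592 and 47243 at 12 h, and 6 rose and 3 fell, or 4 and 2 under median scaling. For T and NK cells, 17 markers summed to 1965 and 2031 at 2 h and 1707 and 1544 at 12 h. Of the T cell receptor complex, Cd3e was at 3.61 and 22.3 at 2 h and 17.4 and 20 at 12 h, Cd3d at 142.7 and 141.2 at 2 h and 133.4 and 133.9 at 12 h, and Cd3g rose (66.1 and 62.2 at 2 h and 136 and 114 at 12 h; 0.81 ± 0.21). Cd4 was between 3.45 and 5.30. The kinase gene Zap70 was at 191.6 and 227.5 at 2 h and 160.9 and 88.8 at 12 h and was not called. Thy1 (37.2 and 31.1 at 2 h and 121 and 118 at 12 h; 1.44 ± 0.19, or 0.90 with a pseudocount of 64) and Bcl11b (112 and 78.5 at 2 h and 258 and 191 at 12 h; 1.11 ± 0.21, or 0.10 and not called as the mean of its probe sets) rose. Cd2, which B cells can also express, made up much of the sum (846 and 837 at 2 h and 289.5 and 356 at 12 h; -1.35 ± 0.11). Of these T and NK genes 4 rose and 2 fell of 14 tested, 42.9% called against 49.0% of all genes. Of 20 myeloid genes tested 7 rose and 4 fell, 55% called and so near the share of all genes, with the sums given above. Itgam was at 1.5 and 0.71 at 2 h and 9.93 and 11.0 at 12 h, whereas the granule genes Camp (473 and 449 at 2 h and 929.5 and 886 at 12 h; 0.95 ± 0.10) and Ngp (444 and 526 at 2 h and 960.3 and 866 at 12 h; 0.89 ± 0.09) rose. Of the lysozyme genes, Lyz1 rose (803.6 and 824.2 at 2 h and 1428.3 and 1304.2 at 12 h; 0.73 ± 0.06). Lyz2 was at 231.4 and 234.0 at 2 h and 320.2 and 347.5 at 12 h. S100a8, abundant in neutrophils, was at 953.8 and 1080.2 at 2 h and 952.8 and 926.3 at 12 h, overlapping between the times. The granule gene Mpo, in contrast, fell (34.1 and 46.8 at 2 h and 11.5 and 9.10 at 12 h; -1.09 ± 0.36), a call lost when any 1 of 3 arrays was left out (-0.93 to -1.16), and Tyrobp, a signalling adaptor, fell as well (942 and 994 at 2 h and 488 and 575 at 12 h; -0.85 ± 0.09). The 11 erythroid and platelet markers summed to 546.5 and 501.0 at 2 h and 556.1 and 639.6 at 12 h, with Hba-a1 between 2.41 and 21.3, and 1 rose and 2 fell of 9 tested (33.3% called). Summed markers of marginal zone and immature B cells went from 4672 and 4777 to 2593 and 2890.0, carried by S1pr3 (2529 and 2565 at 2 h and 700.5 and 696 at 12 h; -1.84 ± 0.10) and Dtx1 (1434 and 1508 at 2 h and 709.7 and 714 at 12 h; -1.03 ± 0.07, or -0.59 as the mean of its probe sets), while Cd9 (1.20 ± 0.15) and Cd1d1 (1.15 ± 0.16, or 0.72) rose. Cd93 was at 42.0 and 69.6 at 2 h and 12.7 and 62.4 at 12 h. The erythroid gene Alas2 fell (60.4 and 60.4 at 2 h and 34.5 and 27.6 at 12 h; -0.70 ± 0.17). Of the plasma cell markers, Prdm1 was at 81.7 and 87.2 at 2 h and 69.2 and 53.8 at 12 h. Sdc1 was at 40.2 and 62.3 at 2 h and 82.5 and 90.6 at 12 h. The part of other cells in the results was not tested.

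The wild type arrays give the same step in cells that keep Zfx, per their labels. In wild type cells 6981 of the 12190 genes were called (57.3%), 4301 higher (35.3%) and 2680 lower (22.0%), with a median of 0.26. This comparison crosses the division of the control probes: 18S signals were 1299 and 1262 at 2 h against 10892 and 10672 at 12 h, and the 5′ actin signal was 8.51% and 8.41% of the 3′ signal against 2.11% and 2.27%. Genotype and this division therefore cannot be told apart in the values that follow. Under median scaling the wild type median was 0.01 and the share of higher genes among the called went from 61.6% to 46.3%, against 61.7% and 62.4% in cko cells. The 20 largest falls of cko cells included 19 that also fell in wild type cells, and 19 of the 20 largest rises also rose there. The exceptions were Hspa1a, whose wild type signals were 1049.8 and 1423 at 2 h and 1075 and 1169.8 at 12 h (-0.12 ± 0.21, limma adjusted p = 0.64), and Il6, with 18.3 and 23.1 against 6.4 and 1.35 (-0.89 ± 0.33), which fell. All of these Il6 signals were near background, below the medians of their arrays, 29.1 and 32.1 at 2 h and 37.8 and 37.4 at 12 h.

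Several lists had like medians in both genotypes. The immediate early genes fell in 25 cases in cko and 24 in wild type cells (medians -1.67 and -1.81), and sterol genes rose in 19 and 16 (medians 1.15 and 0.91). Oxidative phosphorylation subunits rose in 47 and 38 and fell in 2 and 10. For ribosome biogenesis the counts were 22 falls and 1 rise in cko against 17 falls and 7 rises in wild type cells (medians -0.46 and -0.19). The cytokine list had 6 rises in cko against 3 in wild type cells, and NRF2-linked genes a median of 0.84 against 0.34. No difference between lists was tested.

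Tested gene by gene, the change differed between the genotypes in 4307 genes (35.3%), with 1950 higher in cko and 2357 lower, a share of higher genes of 45.3% that became 72.3% under median scaling. The largest differences of change below 0 were those of the Hsp70 genes. Hspa1b fell in cko cells and went from 1837 and 2013 at 2 h to 1559 and 1438 at 12 h in wild type cells, a difference of change of -3.29 ± 0.14 (limma adjusted p = 3.9e-09). For Hspa1a it was -3.70 ± 0.30. Mid1, a ubiquitin ligase of the X chromosome, gave 581 and 507 at 2 h and 102 and 79.3 at 12 h in cko cells and 907 and 828 against 1432 and 1172 in wild type cells (-2.97 ± 0.20). Macroh2a3 was dim except at 12 h in wild type cells, with 291 and 288 (-3.29 ± 0.49, or -2.14 with a pseudocount of 64). It passed the filter on dim probe sets only through those arrays, so its place here rests on the group where it was high. Tmod1, a capping protein of actin filaments, gave 100.4 and 113 at 2 h and 46.2 and 45.2 at 12 h in cko cells. In wild type cells it gave 39.9 and 42.5 against 272 and 171 (-3.01 ± 0.42). The cko change of Tmod1 alone, -0.99 ± 0.29, lost its call without the second 2 h array (-0.91) or the second 12 h array (-0.98). Igk, the kappa light chain, differed by -3.20 ± 0.21 on its brightest probe set and by -0.25, not called, as the mean of its 3 probe sets, 2 of which were called in cko cells in opposite directions.

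On the other side stood Il6 (4.17 ± 0.46, or 2.20 with a pseudocount of 64) and Camp, an antimicrobial peptide gene of neutrophils. Il6 passed the filter on dim probe sets only through its 12 h cko arrays. Camp rose in cko cells as given above and fell from 2513 and 2530.0 to 293 and 247 in wild type cells (4.11 ± 0.14). On their brightest probe sets the next 4 followed the control probes. Uqcrh, a subunit of respiratory complex III, was at 4379 and 4663 at 2 h and 4367 and 4556 at 12 h in cko cells and at 4462 and 4562 at 2 h but 252 and 259.8 at 12 h in wild type cells, with 301 and 210.0 in cko and 235 and 250.2 in wild type cells at 0 h (4.04 ± 0.17). Its signal was thus high on the 6 arrays with little 18S signal and low on the other 6. Rpl22l1, a ribosomal protein paralog, and the brightest set of Thoc2, an mRNA export factor, showed the same pattern. At 12 h they gave 312 and 218 and 406 and 366 in wild type cells against 3642 and 3855 and 3763 and 4024 in cko cells (3.68 ± 0.17 and 3.39 ± 0.10). Another Thoc2 set was also higher in cko cells at 12 h, at 690.1 and 794.4 against 243.0 and 144.1 in wild type cells. A further Thoc2 set did not follow the pattern, with 327.9 and 230.8 in cko cells against 394.5 and 358.1 in wild type cells at 12 h. Ube2s, a ubiquitin-conjugating enzyme of mitosis, gave 438 and 492 at 2 h and 867 and 992 at 12 h in cko cells and 616 and 768 against 116 and 121 in wild type cells (3.37 ± 0.27). At 0 h it was at 84.4 and 111 in cko and 46.7 and 76.1 in wild type cells. The signal of this brightest Ube2s set too was thus high on the 6 arrays with little 18S signal and low on the other 6. As means of their probe sets Thoc2 and Ube2s had differences of change of 1.46 and 1.24, and the change of Ube2s in cko cells went from 0.98 ± 0.19 to 0.03, not called. The part of the control-probe division in these differences cannot be told apart from that of the genotype.

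**Figure D4:**
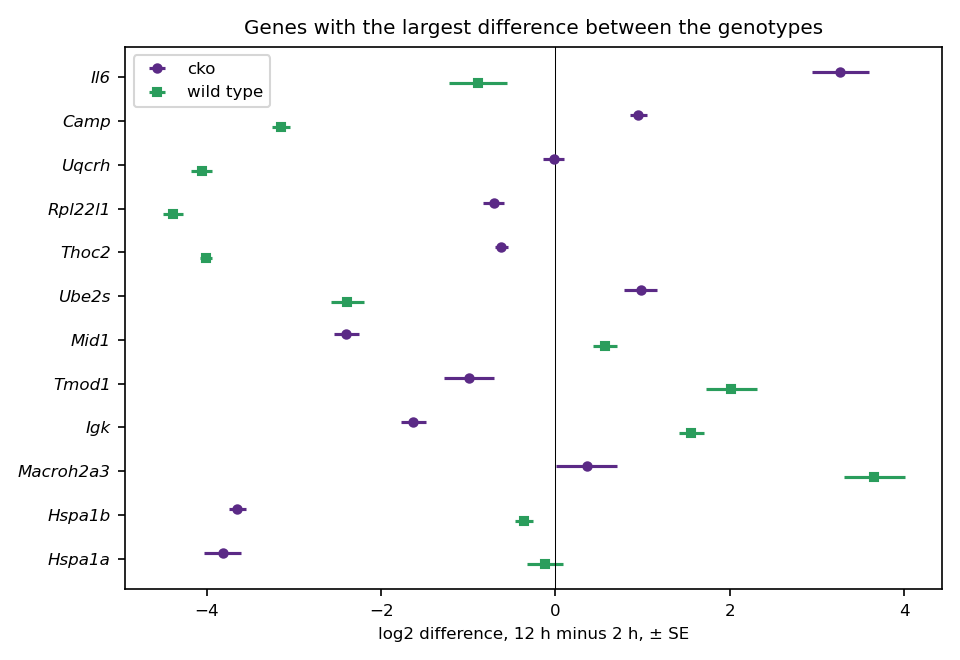
Log2 differences from 2 h to 12 h ± SE (n = 2 arrays a group) of the 6 genes with the largest difference of change in each direction, cko in purple circles and wild type in green squares. Il6 rose in cko cells and fell in wild type cells, where all its signals were near background, whereas Uqcrh differed by -0.02 in cko and -4.06 in wild type cells.

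Some genes central to B cell signalling and survival had further values in wild type cells. Cd79a had 1505 and 1276 at 2 h and 1254 and 1162 at 12 h there (-0.20 ± 0.12), where it was not called, and the difference of change was 2.61 ± 0.16 (limma adjusted p = 1e-07). Bcl2l1 rose in wild type cells (857 and 858 to 2177 and 1777; 1.18 ± 0.17), with a difference of change of -0.93 ± 0.24. Atf4 on its brightest probe set fell by more in wild type cells, from 4452 and 4329 to 1149 and 1136 (-1.93 ± 0.06; difference of change 1.39 ± 0.08). Its other probe set past the filter gave overlapping wild type signals, 1651 and 1841 at 2 h and 1922 and 1592 at 12 h. In cko cells that set fell by 0.90, so for Atf4 the direction of the genotype difference depended on the probe set. For Ddit3 and Cd86, which fell in both genotypes, the differences of change on the brightest probe sets were 0.00 ± 0.13 and -0.07 ± 0.10 and were not called. The other Ddit3 set went from 397 and 418.5 to 36.3 and 7.02 in wild type cells, but differed by -0.60 in cko cells, not called. The other Cd86 set went from 3544 and 3845 to 452.5 and 729 in wild type and from 3614 and 3559 to 870 and 988 in cko cells. Differences of change on these other sets were not tested. Myc fell from 4869.6 and 4505 to 393 and 426 in wild type cells (-3.47 ± 0.12), with a difference of change of 0.95 ± 0.17.

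Probe sets of 1 gene did not always move together. Over all 21905 probe sets past the filter with 1 gene symbol, 9602 (43.8%) were called. Of the 2065 genes with at least 2 called probe sets, 252 (12.2%) had them called in both directions, and 14 of the genes named by rule were among them, Zfx included. Mcl1, the BCL2 family member that B cells depend on, had a brightest probe set at 11344 and 11409 at 2 h and 10939.8 and 10872 at 12 h (-0.06 ± 0.05, not called), while its other 5 fell by between 0.52 and 0.92. As the mean of its probe sets Mcl1 fell by 0.58, and its brightest set was called at -0.20 under quantile normalization. Ccnd2 had 7 probe sets, of which 2 fell, by 1.02 and 0.18, and 5 were not called. In Nr4a2, Hadh and Cdkn1a the called probe sets shared a direction.

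**Figure D5:**
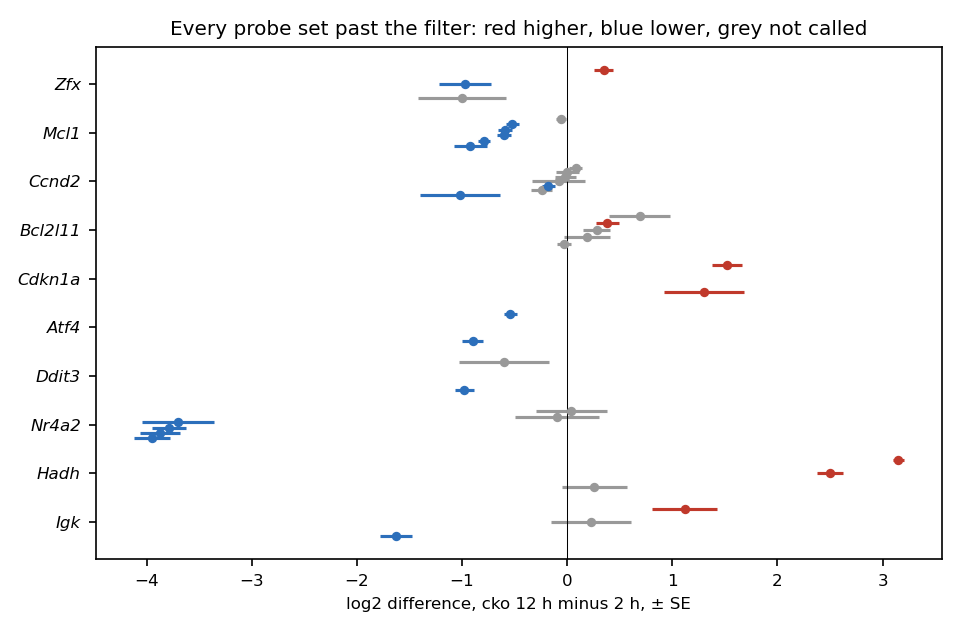
Log2 differences from 2 h to 12 h in cko cells ± SE (n = 2 arrays a group), 1 point for each probe set past the filter, for 10 genes, red where called higher, blue where called lower and grey where not called. The brightest Mcl1 probe set stands at -0.06 and the other 5 between -0.92 and -0.52, and Zfx has 1 called probe set on each side of 0.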

How the data were processed

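Expression was measured on 12 Affymetrix Mouse Genome 430 2.0 arrays, 2 in each of 6 groups. The values are linear signal intensities, summarised by the authors with GCOS 1.4 and scaled to a 2% trimmed mean of 250, per the labels and the submitters' processing notes. The summarisation algorithm is not stated and precision is limited by the small number of arrays.

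Of 45101 probe sets, 34945 had 1 gene symbol, 932 several and 9160 none. On log2(signal + 16), probe sets with a mean above the 40th percentile (5.14) were kept, 21905 in all, and the brightest of a gene stood for it, giving 12190 genes. limma 3.58.1 in R 4.3.3 was fitted to all 12 arrays with 1 mean a group, 6 residual degrees of freedom, moderated variances with an intensity trend, two-sided tests and Benjamini-Hochberg adjustment over all genes. The scripts were tested on simulated data.

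The comparison, its members and the 43 gene lists were chosen with earlier results of these data known. Genes were named by rule: the 20 largest falls and rises without overlap of arrays, the 4 smallest p-values of each list and its members against the majority, the 6 largest differences of change each way, and 15 genes of general interest. Of these 312 genes not all are printed. Cell type markers outside the rule, such as S100a8, Adgre1, Csf1r, Cd3d and Zap70, are named from the marker lists, chosen after their values were seen. Alternatives in normalization, pseudocount, filter, variance model, probe set choice, replicate pairing and left-out arrays are in the closing section. Same-numbered duplicates deviated together with a correlation of 0.01 between cko 2 h and cko 12 h, and from -0.01 to 0.01 over the 15 pairs of groups, so the numbers do not pair the arrays.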

Additional observations from a re-analysis of the deposited data

Results flagged for a closer look

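The change from 2 h to 12 h differed between cko and wild type cells in 4307 genes by the interaction test of limma. The 12 named genes with the largest differences of change, cko minus wild type on the log2 scale, are given here with what the arrays show. Below 0 stood Hspa1a at -3.70, Hspa1b at -3.29, Macroh2a3 at -3.29, Igk at -3.20, Tmod1 at -3.01 and Mid1 at -2.97. Above 0 stood Il6 at 4.17, Camp at 4.11, Uqcrh at 4.04, Rpl22l1 at 3.68, Thoc2 at 3.39 and Ube2s at 3.37. Macroh2a3 passed the filter on dim probe sets only through its wild type 12 h arrays, and Il6 only through its cko 12 h arrays.

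Every one of these differences uses the wild type arrays, whose 2 h and 12 h groups lie on different sides of the control-probe division, with 3′ 18S signals of 1299 and 1262 against 10892 and 10672. Genotype and this division cannot be told apart here. On their brightest probe sets Uqcrh, Rpl22l1, Thoc2 and Ube2s were high on all 6 arrays with low 18S signal and low on the other 6. Not every probe set of Thoc2 did so. In cko cells alone, where both times share 1 side, Hspa1a, Hspa1b, Mid1 and Camp were called on brightest probe sets that kept their call under every alternative tried.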

How the results depend on the processing

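The cko comparison called between 5078 and 5210 genes when 1 array was left out, the wild type comparison 6172 to 6275, the difference of change 3644 to 3877, and the fit of every probe set 7889 to 8079. With at least a 2-fold change required, these 4 counts were 2048, 3123, 1635 and 3466. No other alternative moved a count by more than 1.5 times. The median of all genes in the cko comparison was 0.09 with quantile normalization, 0.12 and 0.07 with pseudocounts of 1 and 64, 0.04 without a filter, 0.16 with a filter at the 60th percentile, 0.07 with the mean of the probe sets and 0.10 to 0.12 without 1 array. With the replicate block, which the arrays gave no basis for, the counts were 5953, 6961, 4279 and 9572. Of the 312 named genes 306 were called. Of these 306, 55 lost or reversed a call in at least 1 alternative, 37 without 1 array and 29 with the mean of the probe sets. That mean reversed 10: Ahsa1 to -0.31, Cflar to -0.45, Foxp1 to -0.04, Hnrnpc to -0.67, Hsph1 to -0.25, Polr1a to -0.36, Srsf1 to -0.47, Xbp1 to -0.01, Ybx1 to -0.62 and Zfx to -0.54. The median of 14 of the 43 lists changed sign in at least 1 alternative, among them cytosolic ribosomal proteins, splicing, G1 regulators and the unfolded protein response. Dim genes are limited by background, since the pseudocount sets the size of their differences, and duplicates that may be technical limit every p-value.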

Other observations

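Probe sets without a single gene symbol also changed from 2 h to 12 h in cko cells. Of 5115 such probe sets past the filter 1756 (34.3%) were called by limma, 839 higher and 917 lower at 12 h. Among genes with 1 symbol the share was 49.0%, with more higher than lower.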
